A study of Mus musculus with 20 samples.

Results

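Liver transcript levels were compared between 2 inbred mouse strains, NZO/Hl (called NZO below) and 129P2/OlaHsd (called 129P2 below). The animals were chosen by the strain named in their labels, which gave 5 NZO and 5 129P2 mice, or 10 of the 20 liver arrays of the series. The other 10 arrays were of the strains C57/Bl6 (B6) and C3H, with 5 mice each, and entered the model for its estimate of the spread. All animals of the 4 strains were male, were 6 weeks old and had eaten a diet with 45% of its calories from fat, 20% from protein and 35% from carbohydrate from the time they were weaned at 21 days. The purpose of the arrays was to find candidate genes, in a series that concerns the knockdown of Nudt19, and no array used here is of a knockdown. Each strain is an inbred line, the labels name a source for the NZO mice and none for the 129P2 mice, and there was no group on another diet. Strain, source and response to the diet therefore cannot be told apart in these data. The labels give 1 array per animal and do not say whether animals shared a litter or cage, so the p-values below rest on the spread between these animals. In the model this spread is pooled over the 4 strains. For a gene more scattered in NZO or 129P2 than in the other strains, the standard error can therefore be too small.

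The NZO mouse is a polygenic model of obesity and diabetes, and the 129P2 mouse is a common laboratory strain used in gene targeting. Hepatocytes make most plasma proteins, synthesize cholesterol and bile acids, and carry the cytochrome P450 and glutathione transferase enzymes that modify drugs and steroids. Inflammatory signals raise the acute phase proteins made by these cells, interferons raise a set of antiviral genes through the transcription factors of the IRF and STAT families, and falling sterol levels raise the genes of cholesterol synthesis through SREBP-2.

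Values are log2 RMA signals (1 unit is 2-fold), and all differences are given as NZO minus 129P2 with the standard error (SE) of the limma fit. Levels can be compared between animals for 1 gene but not between genes. Of 19938 genes on the array with a probe set of their own, 14190 passed the filter on dim signals and were tested, and 5748 did not pass and are not described. The interquartile range of the arrays, a measure of how wide an array's signals spread, did not differ detectably between the strains (exact two-sided permutation p = 0.849), although NZO replicate 2 and 129P2 replicate 2 were among the 3 narrowest of the 20 arrays.

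At an adjusted p below 0.05 (limma, Benjamini-Hochberg over all tested genes), 1263 genes differed, which is 8.9% of those tested. Of these, 609 (4.29%) were higher in NZO and 654 (4.61%) were lower. The median difference over all 14190 tested genes was 0.01, and the median size of a difference was 0.09, against 0.46 among the called genes. Most called differences were small: 54 were below 0.25, 651 lay between 0.25 and 0.5, and 426 between 0.5 and 1. A fold of 2 or more was reached by 62 genes higher and 70 lower in NZO, and a fold of 4 or more by 7 higher and 20 lower. The values of the 5 NZO animals lay wholly above or wholly below those of the 5 129P2 animals for 868 of the called genes, and for 7.95% of all tested genes.

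**Figure D1:**
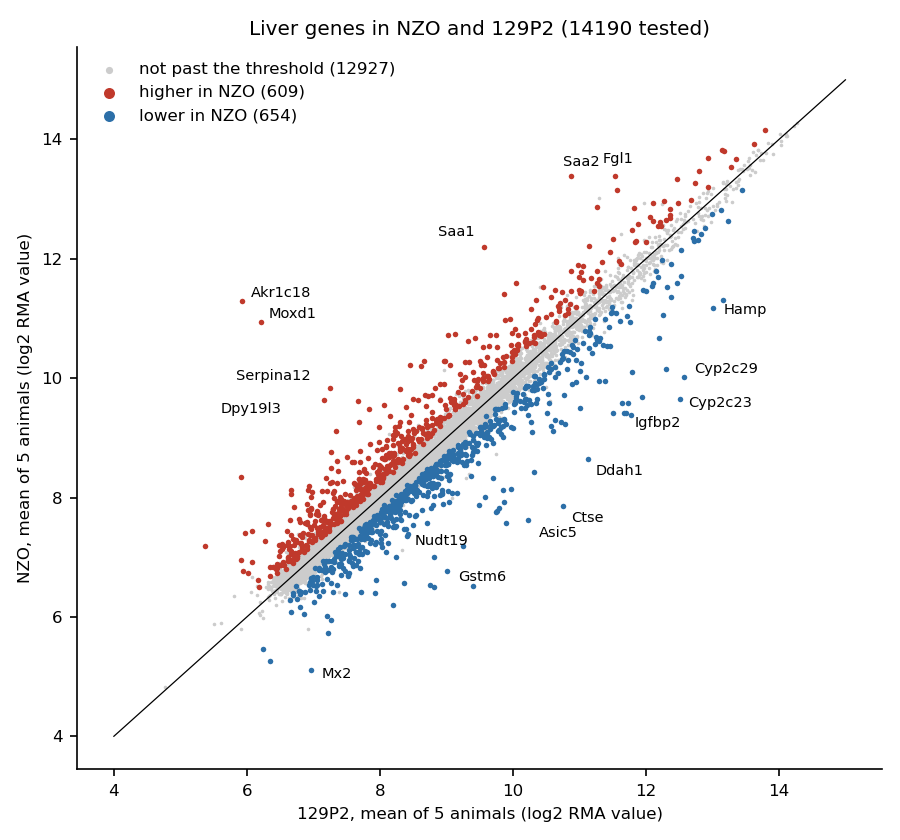
Mean log2 RMA value of each of the 14190 tested genes in the 5 129P2 animals (horizontal) and the 5 NZO animals (vertical), with genes higher in NZO in red, lower in blue and the others in grey. Most genes lie along the line of equal level, and Akr1c18 and Moxd1 stand farthest above it.

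The largest difference belonged to Akr1c18, an aldo-keto reductase that inactivates progesterone. Its values in NZO were 11.66, 11.01, 10.91, 11.49 and 11.41, and in 129P2 they were 5.94, 5.87, 5.99, 5.95 and 5.92. Every NZO animal was far above every 129P2 animal, and all 5 129P2 values were dim, which here means under the 40th percentile of their own array. For a gene that is dim in a whole strain the fold is a lower bound, taken against that percentile: Akr1c18 was at least 25.4-fold higher in NZO (limma adjusted p = 6.98e-15). B6 and C3H means were 6.30 and 6.01.

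Moxd1, a relative of dopamine beta-hydroxylase, came next. NZO animals read 9.47, 11.22, 10.32, 11.89 and 11.81, and 129P2 animals 5.97, 6.20, 6.17, 6.33 and 6.37. The NZO values were scattered over more than 2 log2 units while the 129P2 values were all dim and close together. The gene was at least 19.9-fold higher in NZO (limma adjusted p = 2.32e-05).

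In all, 14 called genes were dim on every 129P2 array and on no NZO array, and 9 were dim on every NZO array and on no 129P2 array. Nat8f5, of the N-acetyltransferase family, was at least 3.27-fold higher in NZO and Slc34a2, a sodium-phosphate cotransporter, at least 1.89-fold. In the opposite direction, Slc6a16, of the family of sodium-dependent neurotransmitter transporters, was at least 2.48-fold higher in 129P2, with 129P2 values of 8.07, 7.61, 8.22, 7.95 and 7.80 against NZO values of 6.11, 6.59, 6.47, 6.45 and 6.42. Serpinb8, a serine protease inhibitor, was at least 1.81-fold higher in 129P2, and Slc15a2, a peptide transporter, at least 1.52-fold. Whether strain differences in the sequence under the probes move such values was not tested.

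Some smaller differences stood out by how little the animals of a strain varied. Dpy19l3, a C-mannosyltransferase of the endoplasmic reticulum, read 9.73, 9.48, 9.53, 9.74 and 9.68 in NZO against 7.15, 7.11, 7.06, 7.13 and 7.38 in 129P2, a difference of 2.46 (SE 0.10, limma adjusted p = 1.36e-13). Asic5, a bile acid-sensitive ion channel, was lower in NZO by a difference of -2.62 (SE 0.10, limma adjusted p = 5.55e-14), with NZO values of 7.44 to 7.90 and 129P2 values of 10.06 to 10.35. B6 had a mean of 7.40 for Asic5 and C3H a mean of 10.15, so that NZO lay near one of the other strains and 129P2 near the other. Invs, which encodes the ciliary protein inversin, differed by 0.82 (SE 0.06, limma adjusted p = 4.43e-09), with every NZO value above the highest 129P2 value of 8.29.

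Nudt19, a peroxisomal hydrolase that cleaves coenzyme A, was lower in NZO. Its NZO values were 7.59, 7.38, 7.32, 7.42 and 7.69, and its 129P2 values 8.58, 7.93, 8.49, 8.64 and 8.34. The groups did not overlap, and 129P2 replicate 2 was the 129P2 animal nearest to NZO. The difference was -0.91 (SE 0.11, limma adjusted p = 4.62e-06, exact two-sided permutation p = 0.00794, the smallest that 5 against 5 animals allow). Among 18 tested genes that make or break down coenzyme A, no other was called, against 8.9% of all tested genes, and the median of the list was 0.01. Around coenzyme A esters, Acnat2, an acyl transferase, was 3.39-fold higher in NZO (difference 1.76, SE 0.27, limma adjusted p = 9.61e-05), while the acyl-CoA thioesterases Acot2 (-0.92, SE 0.22) and Acot11 (-0.61, SE 0.08) were lower. Acot1 was also called lower, by at least 1.37-fold.

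**Figure D2:**
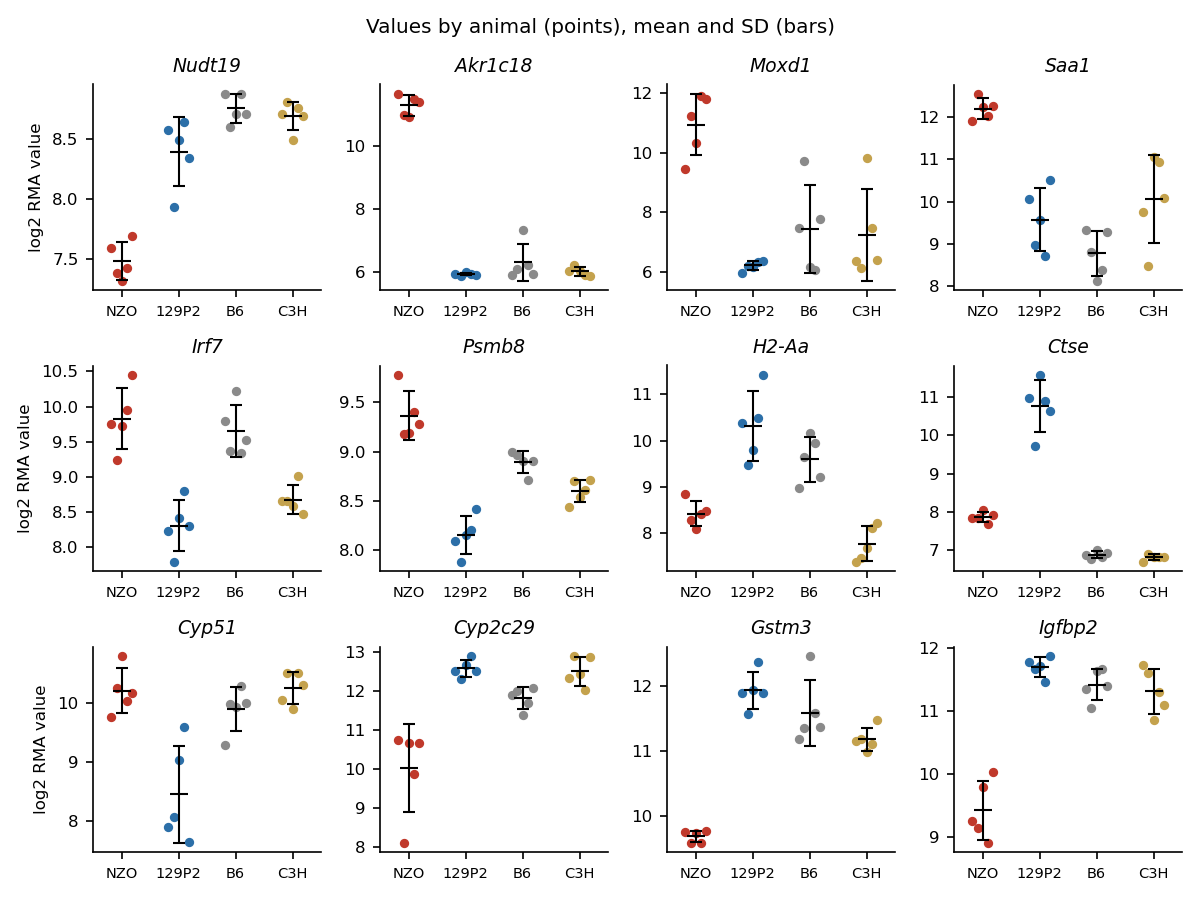
Log2 RMA values of 12 genes in the 5 animals of each strain (points), with the mean and SD as bars. NZO and 129P2 animals do not overlap for any of the 12 genes shown although the nearest animals for Cyp51 lie close, at 9.77 in NZO and 9.59 in 129P2.

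Of 39 tested interferon-stimulated genes, 28 were higher in NZO, 1 was lower and 10 were not called, against 4.29% of all tested genes called higher, and the median difference of the list was 0.53 against 0.01 over all genes. The mean level of the list lay between 8.13 and 8.52 in the NZO animals and between 7.53 and 7.92 in the 129P2 animals. Irf7, the transcription factor that amplifies type I interferon responses, had NZO values of 9.76, 9.25, 9.73, 9.96 and 10.45 and 129P2 values of 8.23, 7.79, 8.41, 8.80 and 8.31. All NZO animals were above all 129P2 animals, by 1.52 on average (SE 0.20, limma adjusted p = 1.29e-05). Ifi27, a mitochondrial protein induced by interferon, differed by 1.62 (SE 0.14), and Ifit1, which binds viral RNA lacking a methylated cap, by 1.08 (SE 0.17), both without overlap.

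The Mx genes, neighbours that encode antiviral GTPases, moved in opposite directions. Mx1 read 6.90 to 8.43 in NZO, with a median of 7.13, and 5.81 to 6.24 in 129P2, where all 5 values were dim, and was at least 1.75-fold higher in NZO (limma adjusted p = 5.83e-05). Mx2 read 4.98, 5.21, 5.01, 5.15 and 5.22 in NZO, where all 5 were dim, against 7.14, 6.58, 6.67, 7.33 and 7.11 in 129P2, and was at least 1.27-fold lower in NZO (limma adjusted p = 1.2e-09). Means of Mx2 in B6 and C3H were 6.93 and 7.07. These are close copies, and sequence differences under their probes were not tested.

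The interferon-stimulated genes were also counted against the other strains. NZO minus B6 gave 2 members higher and 3 lower, where 10.3% of all tested genes were called, 3.63% higher and 6.64% lower. NZO minus C3H gave 17 higher and 1 lower (6.6% of all genes called, 3.51% higher and 3.09% lower), 129P2 minus B6 gave 0 higher and 26 lower (6.19%, with 2.11% higher and 4.08% lower), and 129P2 minus C3H gave 0 higher and 3 lower (5.03%, with 2.78% higher and 2.25% lower). These comparisons share animals, so they are not independent of each other. For Irf7, the means of B6 and C3H were 9.65 and 8.68.

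The related families of immunity GTPases and Ifi200 proteins had 10 tested genes. Of these, 6 were higher and 1 lower in NZO, against 4.29% and 4.61% of all tested genes. Irgm1, which controls membrane traffic in infected cells, was 2.2-fold higher (difference 1.14, SE 0.11, limma adjusted p = 3.5e-07), and Gbp7, a guanylate-binding protein, differed by 0.68 (SE 0.16). Ifi203, a DNA-binding member of the Ifi200 family, was lower by a difference of -1.07 (SE 0.20), although NZO replicate 1, at 8.14, lay just above the lowest 129P2 value of 8.12.

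The interferon-stimulated response element, the site that IRF and STAT factors bind, was searched as GAAA, any 2 bases and GAAA on both strands of the 250 bases before the gene start, from RefSeq (GRCm38.p6). It was found in 8 of the 27 interferon-stimulated genes with a window (29.6%), in 3.0% of the 11218 tested genes with one and in 3.46% of the 27025 genes of the promoter table. The windows of Ifit1 and Rsad2 are shown because the motif lies near the start in both, with matches in capitals. Ifit1, at chr19:34640639-34640888 on the plus strand, held matches starting at -104 and -85, and Rsad2, at chr12:26456453-26456702 on the minus strand, held 1 at -120. Both read as the reverse complement, and a match is a description of the letters only.
Ifit1: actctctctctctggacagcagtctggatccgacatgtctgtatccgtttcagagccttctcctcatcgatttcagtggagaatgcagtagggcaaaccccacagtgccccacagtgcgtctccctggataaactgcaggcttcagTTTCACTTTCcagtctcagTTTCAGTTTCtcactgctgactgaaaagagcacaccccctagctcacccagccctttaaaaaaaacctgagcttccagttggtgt
Rsad2: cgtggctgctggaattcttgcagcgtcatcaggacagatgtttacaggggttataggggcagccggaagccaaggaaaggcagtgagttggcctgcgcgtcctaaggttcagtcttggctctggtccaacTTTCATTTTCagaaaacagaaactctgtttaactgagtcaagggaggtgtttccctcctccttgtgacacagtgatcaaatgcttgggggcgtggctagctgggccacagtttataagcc
Rsad2, which encodes the antiviral enzyme viperin and was picked here for its motif after its values were seen, read 8.51, 7.83, 7.82, 8.26 and 8.17 in NZO and 7.09, 6.82, 7.07, 7.60 and 7.08 in 129P2. The groups did not overlap, and the difference was 0.99 (SE 0.16, limma adjusted p = 0.000149).

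Of 22 tested genes of MHC class I presentation, 10 were higher in NZO, 0 were lower and 12 were not called, against 4.29% of all tested genes called higher, with a median difference of 0.32. Psmb8, an immunoproteasome subunit that cuts proteins into class I peptides, read 9.78, 9.18, 9.19, 9.40 and 9.28 in NZO and 8.10, 7.88, 8.16, 8.21 and 8.42 in 129P2, a difference of 1.21 (SE 0.11, limma adjusted p = 4.93e-08). The strains were apart by more than the range within either. Its neighbour subunit Psmb9 differed by 0.60 (SE 0.10), the peptide transporter subunit Tap2 by 0.62 (SE 0.07), and Mr1, which presents vitamin B metabolites to T cells, by 0.64 (SE 0.13).

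Of 10 tested genes on the MHC class II list, 6 were lower in NZO and 0 were higher, against 4.61% of all tested genes called lower. The median was -0.59. The list leaves out H2-Ea, a class II gene that was higher in NZO and is given below. H2-Aa, the class II alpha chain, read 8.85, 8.30, 8.10, 8.41 and 8.48 in NZO and 10.39, 9.48, 9.80, 10.50 and 11.42 in 129P2. The groups were apart, the 129P2 animals were scattered, and 129P2 replicate 5 was the highest. The difference was -1.89 (SE 0.28, limma adjusted p = 5.64e-05). Its partner chain H2-Ab1 differed by -1.84 (SE 0.26) and Cd74, the invariant chain that guides class II molecules to the endosome, by -1.49 (SE 0.24).

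Ctse, an endosomal aspartic protease of antigen-presenting cells and counted in the same list, showed the largest of these differences. NZO values were 7.83, 7.85, 8.04, 7.69 and 7.92 and 129P2 values 10.96, 9.73, 11.57, 10.89 and 10.64. The 129P2 mean was 7.42-fold higher (difference -2.89, SE 0.19, limma adjusted p = 4.58e-10), and the means of B6 and C3H, 6.88 and 6.81, were lower than that of NZO. For H2-Aa, B6 had a mean of 9.60 and C3H one of 7.78. H2-Ea, the alpha chain of the I-E class II molecule, which some mouse strains lack, is outside the list and ran against it. NZO values were 7.07 to 7.92, and all 5 129P2 values were dim (5.78 to 6.25). H2-Ea was at least 1.71-fold higher in NZO (limma adjusted p = 3.44e-08).

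Markers of the cells that carry class II were set beside these values. Of 14 tested markers of Kupffer cells and macrophages, 1 was higher in NZO (Mpeg1, a pore-forming protein of phagocytes, 9.51 to 10.30 in NZO against 8.27 to 9.41) and 1 lower (Clec4f, a lectin of Kupffer cells, -0.59, SE 0.12). These calls came to 14.3% of the 14, against 8.9% of all tested genes. The mean level of the 14 lay between 8.58 and 9.28 in NZO and between 8.54 and 9.55 in 129P2. It was highest in 129P2 replicate 5, as was H2-Aa. Of the 10 monocyte and dendritic cell markers on the array 4 passed the filter, of the 8 B and plasma cell markers 4 passed, and 0 of either were called. In bulk liver, fewer cells of a type and less RNA per cell cannot be told apart, and the part of these cells in the class II values was not tested.

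**Figure D3:**
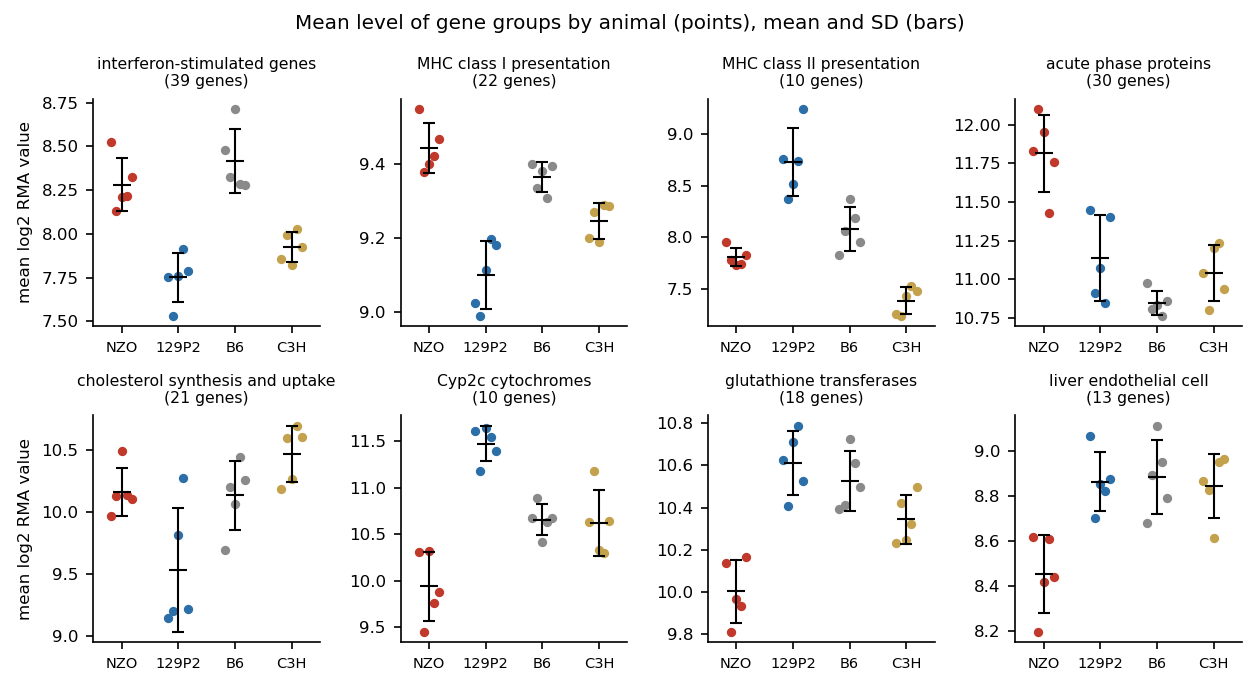
Mean log2 RMA value of 8 gene lists in each animal (points) of the 4 strains, with the mean and SD as bars and the number of tested genes in brackets. NZO and 129P2 animals are apart in all 8 lists drawn except cholesterol synthesis and acute phase proteins, where 1 or more animals of one strain lie within the range of the other.

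Of 30 tested acute phase proteins, 16 were higher in NZO and 1 lower, against 4.29% and 4.61% of all tested genes, with a median of 0.52, and the mean level lay between 11.43 and 12.10 in the NZO animals and between 10.85 and 11.45 in the 129P2 animals. Saa1, a serum amyloid A apolipoprotein that the liver releases in inflammation, read 11.91, 12.56, 12.24, 12.02 and 12.27 in NZO and 10.07, 8.97, 9.57, 8.71 and 10.52 in 129P2. The NZO animals were close together and all above the 129P2 animals, which spread over almost 2 log2 units. The difference was 2.63 (SE 0.38, limma adjusted p = 5.64e-05).

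Saa2 differed by 2.51 (SE 0.47, limma adjusted p = 0.00096), with NZO values of 12.77 to 13.67 and 129P2 values of 9.62 to 11.99, and Saa3, also made by macrophages and fat cells, by 1.96 (SE 0.28, limma adjusted p = 4.06e-05). Saa4, the member that is made constitutively, differed by 1.04 (SE 0.27, limma adjusted p = 0.014), with overlap, and the call was lost without the 3 narrowest arrays (adjusted p = 0.116). Probe sets of Saa1 and Saa2 can share targets, because the genes are near copies, and they may not report each gene alone. The copies also share their upstream windows, which is why both are shown: 238 of 250 bases were identical (95.2%) in RefSeq (GRCm38.p6), and capitals mark the bases that differ or face a gap. Saa1 lies at chr7:46742981-46743230 on the minus strand and Saa2 at chr7:46751583-46751832 on the plus strand.
Saa1: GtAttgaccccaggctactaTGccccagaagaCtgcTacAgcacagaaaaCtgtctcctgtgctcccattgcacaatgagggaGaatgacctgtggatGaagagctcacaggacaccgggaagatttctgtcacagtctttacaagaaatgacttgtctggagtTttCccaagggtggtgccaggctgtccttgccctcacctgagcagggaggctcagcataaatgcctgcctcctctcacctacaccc
Saa2: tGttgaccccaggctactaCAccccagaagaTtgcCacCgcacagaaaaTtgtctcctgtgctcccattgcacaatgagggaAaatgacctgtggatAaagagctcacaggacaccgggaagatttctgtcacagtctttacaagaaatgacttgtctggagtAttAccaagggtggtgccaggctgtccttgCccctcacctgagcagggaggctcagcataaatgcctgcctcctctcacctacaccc
The NF-kB site searched as GGG, any 2 bases and TTTCC on both strands was in the windows of 3 of 23 acute phase genes and of 1.69% of the 11218 tested genes with a window, and in neither window above.

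Fgl1 is a hepatocyte-secreted relative of fibrinogen. NZO values were 13.38, 13.68, 13.62, 13.02 and 13.25 and 129P2 values had a lowest of 11.05 and a median of 11.43, a difference of 1.85 (SE 0.15, limma adjusted p = 1.8e-08). No animals overlapped. Orm1, which encodes the plasma carrier orosomucoid, differed by 0.67 (SE 0.14). Hamp, the iron hormone hepcidin, was the 1 member that was lower: NZO values were 13.08, 9.42, 11.19, 10.47 and 11.71 and 129P2 values 13.44, 12.87, 13.05, 12.63 and 13.06. NZO replicate 1 lay within the 129P2 range while NZO replicate 2 lay more than 3 log2 units under it. The difference was -1.84 (SE 0.39, limma adjusted p = 0.00266), and it ranged from -2.31 to -1.40 when 1 animal was left out at a time.

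Lcn2, the siderophore-binding lipocalin, and Mt2, a metallothionein, are classic acute phase genes that were not called. Lcn2 read 9.68, 13.27, 12.43, 11.20 and 11.10 in NZO and 10.76, 9.57, 9.76, 10.71 and 11.20 in 129P2 (difference 1.14, SE 0.55, limma adjusted p = 0.255). Mt2 read 12.67, 13.93, 13.76, 11.35 and 13.42 against 12.69, 11.89, 10.45, 8.67 and 12.75 (1.74, SE 0.66, limma adjusted p = 0.119). Both varied widely within the strains and overlapped between them. Stat3, the transcription factor downstream of IL-6, differed by 0.47 (SE 0.12, limma adjusted p = 0.00963), which did not pass without the 3 narrowest arrays (adjusted p = 0.0549). Of the 19 tested genes of IL-6, IL-1 and STAT3 signalling only Stat3 was called higher and Tnfrsf1a, the tumour necrosis factor receptor, lower (-0.34, SE 0.09). That is 10.5% called, near the 8.9% of all tested genes. Of 9 proteins that fall in inflammation, 1 was lower, Serpina6, the cortisol-binding globulin (-0.81, SE 0.17), which is 11.1% and also near that share. Of 10 neutrophil markers on the array, 5 passed the filter and 0 were called, too few tested to tell from 8.9%.

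In the other comparisons, NZO minus B6 had 19 acute phase genes higher and 1 lower, where 3.63% of all tested genes were higher, and NZO minus C3H had 17 higher and 1 lower, where 3.51% were. The strain 129P2 had 3 of 30 higher and 1 lower against B6 (2.11% of all genes higher) and 1 higher and 0 lower against C3H (2.78%). The comparisons share animals. For Saa1, means were 8.78 in B6 and 10.07 in C3H.

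Among 42 tested genes of complement and coagulation, 13 were higher and 1 lower in NZO, against 4.29% and 4.61% of all tested genes. The median difference was only 0.09. Cfi, the protease that inactivates complement fragments on cell surfaces, read 12.87 to 13.12 in NZO and 12.09 to 12.46 in 129P2, a difference of 0.69 (SE 0.07, limma adjusted p = 7.65e-07). The groups did not overlap. C4a, a copy of the fourth complement component, differed by 0.87 (SE 0.15), C6, of the membrane attack complex, by 0.72 (SE 0.13), and Pros1, the anticoagulant protein S, by 0.55 (SE 0.12). Serpina1d, an alpha-1-antitrypsin copy, was 3.03-fold higher in NZO (difference 1.60, SE 0.08, limma adjusted p = 5.66e-12). Its B6 and C3H means, 12.90 and 12.97, lay near that of NZO, and probes can be shared among the copies of this family.

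Of 21 tested genes of cholesterol synthesis and uptake, 11 were higher in NZO and 1 lower, against 4.29% and 4.61% of all tested genes, with a median of 0.53. Cyp51, the lanosterol demethylase, read 9.77, 10.27, 10.81, 10.04 and 10.18 in NZO and 7.90, 8.07, 9.04, 9.59 and 7.64 in 129P2. All NZO animals were higher, but 129P2 replicate 4, at 9.59, came close to the lowest of them. The difference was 1.77 (SE 0.28, limma adjusted p = 0.000148). Sqle, squalene epoxidase, read 9.20, 9.52, 10.10, 9.38 and 9.24 against 7.07, 7.30, 8.38, 9.27 and 7.20 (difference 1.65, SE 0.32, limma adjusted p = 0.00126). Msmo1, the methylsterol monooxygenase that acts after Cyp51, read 11.02, 11.77, 12.23, 11.42 and 11.51 against 9.26, 9.50, 10.73, 11.29 and 9.44 (1.55, SE 0.31, limma adjusted p = 0.0019).

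The 129P2 animals were not alike in this pathway. Replicates 3 and 4 were the highest for each of Cyp51, Sqle and Msmo1, and the mean level of the 21 genes was 9.14, 9.20, 9.82, 10.28 and 9.22 in 129P2 against 9.97, 10.13, 10.49, 10.14 and 10.10 in NZO, so that 1 of the 129P2 animals reached the NZO range. Without 129P2 replicate 4, 15 members were called higher, and without the 3 narrowest arrays 6 were.

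Hmgcs1, which makes the HMG-CoA that starts the pathway, overlapped between the strains, with 10.15, 10.71, 11.45, 10.37 and 10.44 in NZO and 8.60, 8.70, 9.92, 10.56 and 8.85 in 129P2. Its difference was 1.30 (SE 0.33, limma adjusted p = 0.0124), which did not pass without the 3 narrowest arrays (adjusted p = 0.0762). Its upstream window is shown because it was the only 1 of 17 cholesterol genes with a window (5.88%) to hold the sterol regulatory element TCACNCCAC, searched on both strands and present in 1.3% of tested genes. The window lies at chr13:119690101-119690350 on the plus strand (RefSeq, GRCm38.p6), with the match at -137 in capitals.
Hmgcs1: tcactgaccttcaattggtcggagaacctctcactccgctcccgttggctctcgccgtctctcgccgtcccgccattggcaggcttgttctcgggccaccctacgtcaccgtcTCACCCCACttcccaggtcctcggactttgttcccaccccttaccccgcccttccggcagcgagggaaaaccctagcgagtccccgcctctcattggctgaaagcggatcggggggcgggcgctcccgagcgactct
Srebf2, which encodes SREBP-2 itself, was not called (difference 0.32, SE 0.11, limma adjusted p = 0.0659). Insig2, which holds SREBP proteins in the endoplasmic reticulum, was the 1 member that was lower (-0.87, SE 0.22, limma adjusted p = 0.0139), and lost its call without NZO replicate 3 (adjusted p = 0.0552).

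For the cholesterol genes, NZO minus B6 gave 0 higher and 1 lower and NZO minus C3H gave 0 higher and 2 lower, whereas 129P2 minus B6 gave 9 lower (4.08% of all genes) and 129P2 minus C3H gave 16 lower (2.25%), with 0 higher in either. The animals are shared between these comparisons. Mean Cyp51 was 9.90 in B6 and 10.26 in C3H.

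Of 28 tested genes of fatty acid and triglyceride synthesis, 0 were higher and 4 lower in NZO, with a median of -0.18. That is 14.3% called, against 8.9% of all tested genes. Srebf1, which encodes the lipogenic factor SREBP-1, differed by -0.51 (SE 0.12, limma adjusted p = 0.00724), and Scd2, a fatty acid desaturase, by -0.74 (SE 0.18). Fasn, fatty acid synthase, was not called: NZO values were 9.36 to 10.43 and 129P2 values 9.44 to 11.10, with a difference of -0.15 (SE 0.30, limma adjusted p = 0.863). Of 28 genes of mitochondrial fatty acid oxidation and ketogenesis, 0 were higher and 3 lower, with a median of -0.16. That is 10.7% of the list, near the 8.9% called over all tested genes. Of these, Cd36, a fatty acid transporter, differed by -0.91 (SE 0.24, limma adjusted p = 0.014) and lost its call without NZO replicate 2 (adjusted p = 0.0514).

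Peroxisomal genes were called in both directions, 5 higher and 4 lower of 30 tested (30.0%, against 8.9% of all tested genes). Hacl1, which shortens branched and hydroxy fatty acids in alpha-oxidation, was higher in NZO by 0.76 (SE 0.13, limma adjusted p = 0.000418), and Pxmp4, a peroxisomal membrane protein, by 0.59 (SE 0.12). Acaa1b, a peroxisomal thiolase, was lower by a difference of -0.99 (SE 0.17, limma adjusted p = 0.000262), with NZO replicate 2 lowest at 9.05. Of 31 tested genes of the respiratory chain and ATP synthase, 1 was higher and 1 lower, and the median was -0.145. That is 6.45% of this list called, below the 8.9% over all tested genes.

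Of 24 tested genes of the endoplasmic reticulum stress list, 12 were higher in NZO and 1 lower, against 4.29% and 4.61% of all tested genes, with a median of 0.42. Pdia4, a disulfide isomerase of the endoplasmic reticulum, read 12.13, 11.86, 12.20, 12.19 and 12.17 in NZO and 11.48, 11.16, 11.51, 11.74 and 11.43 in 129P2, a difference of 0.64 (SE 0.10, limma adjusted p = 0.000101). The groups did not overlap. Hyou1, a chaperone, differed by 0.97 (SE 0.18) and Hspa5, the chaperone BiP, by 0.70 (SE 0.15, limma adjusted p = 0.00385). For Hspa5, 129P2 replicate 1 reached 12.39, inside the NZO range of 12.25 to 12.70, and 129P2 replicate 2 was lowest at 11.17. Trib3, a pseudokinase induced late in the stress response, was lower (-0.41, SE 0.10). The list had 5 members called higher and 0 lower in NZO minus B6, the same counts in NZO minus C3H (3.63% and 3.51% of all genes higher), and 3 lower and 0 higher in each of 129P2 minus B6 and 129P2 minus C3H, comparisons that share animals.

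**Figure D4:**
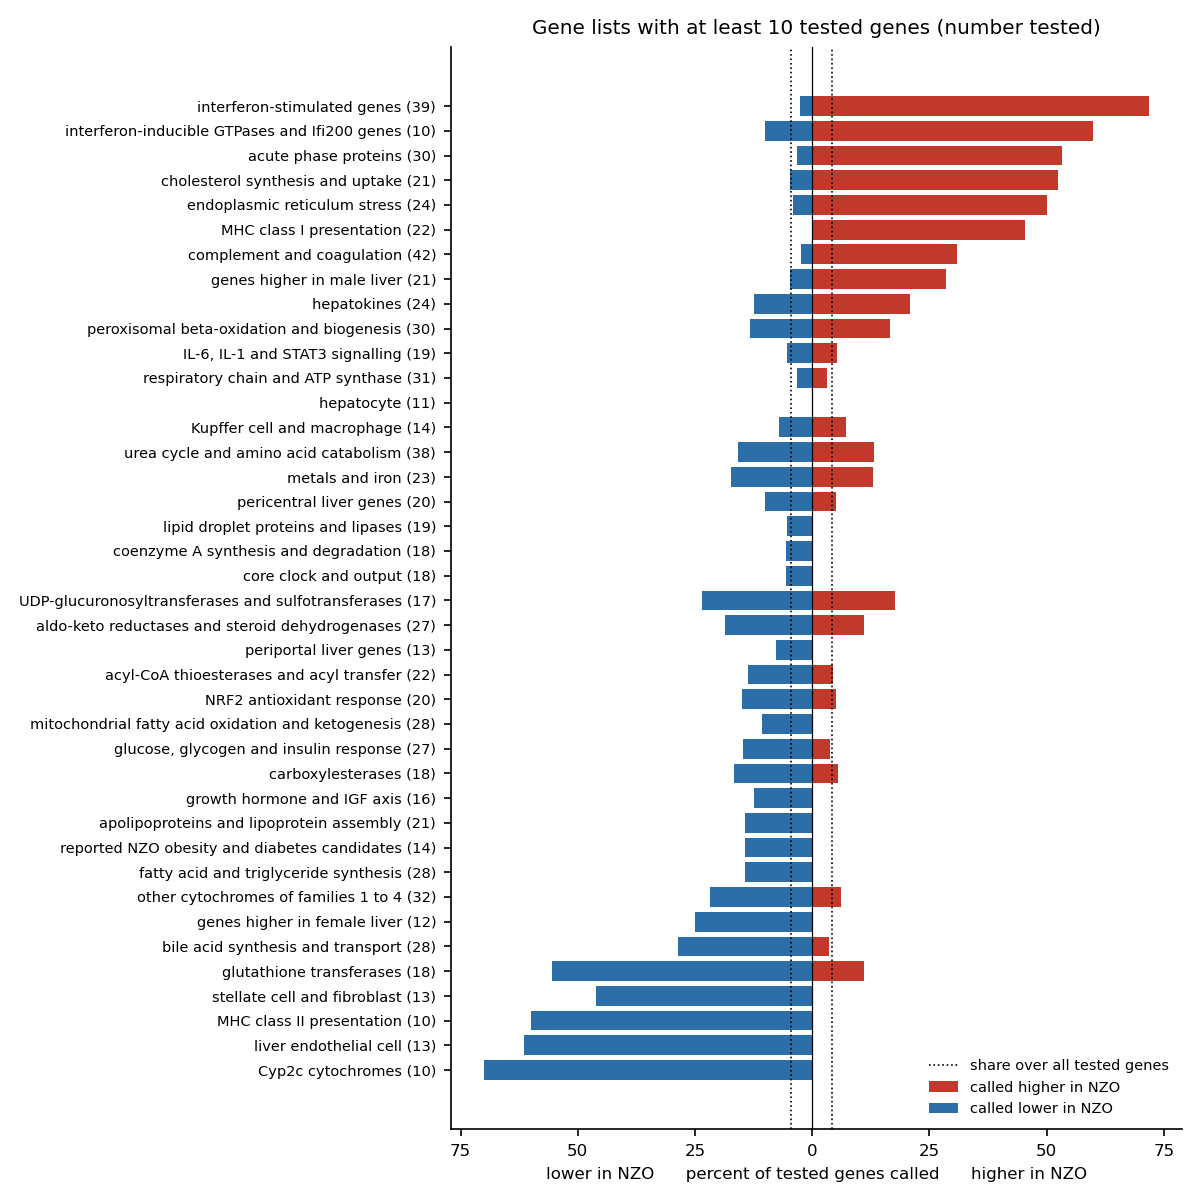
Percent of the tested genes of each list called higher (red, to the right) or lower (blue, to the left) in NZO, with the number of tested genes in brackets and dotted lines at the share over all tested genes (4.29% higher, 4.61% lower). Interferon-stimulated genes have the highest share called higher and Cyp2c cytochromes the highest share called lower.

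The Cyp2c cytochromes oxidize drugs, steroids and arachidonic acid. Of 10 tested, 7 were lower in NZO and 0 higher, against 4.61% of all tested genes called lower, with a median of -2.02. Cyp2c23, an arachidonic acid epoxygenase, read 9.30, 9.61, 9.92, 9.62 and 9.84 in NZO and 12.66, 12.37, 12.62, 12.29 and 12.62 in 129P2, a difference of -2.85 (SE 0.16, limma adjusted p = 1.76e-11). The NZO level was 13.8% of the 129P2 level, and the animals of each strain were close together. Mean Cyp2c23 was 12.58 in B6 and 10.07 in C3H.

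Cyp2c29 was less even. NZO values were 10.75, 8.11, 10.67, 9.88 and 10.66 and 129P2 values 12.49, 12.30, 12.65, 12.89 and 12.51, with NZO replicate 2 far below the other NZO animals. The difference of -2.55 (SE 0.33, limma adjusted p = 1.56e-05) ranged from -2.74 to -2.08 with 1 animal left out at a time. Cyp2c54 differed by -2.09 (SE 0.30). Cyp2c38 was dim in 3 of 5 NZO animals, so that its measured difference is not an exact fold, and differed by -2.88 (SE 0.47, limma adjusted p = 0.000225), with NZO values of 7.20, 5.88, 7.69, 5.94 and 5.89 and 129P2 values of 8.62 to 9.99. These genes are close copies, and their probe sets can share targets.

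Of 32 other cytochromes of families 1 to 4, 2 were higher and 7 lower, with a median of -0.075. That is 28.1% called, against 8.9% of all tested genes. Cyp3a11, the main drug-induced cytochrome of mouse liver, read 10.89, 7.54, 9.32, 10.36 and 9.79 in NZO and 11.62, 11.94, 11.60, 12.25 and 11.22 in 129P2. Again no animals overlapped and NZO replicate 2 was lowest. The difference was -2.15 (SE 0.39, limma adjusted p = 0.00067), or -2.48 to -1.64 with 1 animal left out. Cyp1a2, which metabolizes caffeine, differed by -0.61 (SE 0.12), with NZO values of 12.57 to 12.71 and 129P2 values of 13.07 to 13.38.

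Glutathione transferases, which attach glutathione to reactive compounds, were lower in NZO in 10 of 18 tested genes and higher in 2. The shares of all tested genes were 4.61% lower and 4.29% higher, and the median of the list was -0.43. Gstm3 read 9.75, 9.59, 9.73, 9.58 and 9.76 in NZO and 11.90, 11.56, 11.95, 12.37 and 11.90 in 129P2, a difference of -2.25 (SE 0.17, limma adjusted p = 6.13e-09). A second probe set of Gstm3 differed by -4.56 (SE 0.30), so the size of its difference depends on the probe set while the direction was the same. Gstm6, dim in 2 NZO animals, differed by -2.24 (SE 0.13) and Gstm1, the most studied mu-class enzyme, by -1.85 (SE 0.14). Gstm7, from the same cluster, was higher in NZO, with 11.10, 11.30, 10.89, 11.16 and 11.33 against 10.46, 9.82, 10.41, 10.54 and 10.12 (0.89, SE 0.13, limma adjusted p = 4.8e-05). The 2 directions thus occurred within 1 family of close copies, whose probe sets can share targets. Gstt2, of the theta class, was lower by a difference of -1.80 (SE 0.19).

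Other enzymes of conjugation and hydrolysis were called in both directions. Sult1a1, a phenol sulfotransferase, was 2.93-fold lower in NZO (difference -1.55, SE 0.17, limma adjusted p = 1.85e-06), whereas the UDP-glycosyltransferases Ugt2b37 (1.49, SE 0.24) and Ugt3a1 (1.26, SE 0.18) were higher. Among carboxylesterases, Ces1f (-1.53, SE 0.22), Ces1e (-1.04, SE 0.22) and Ces2a (-1.10, SE 0.21) were lower while Ces1g, a triglyceride and cholesteryl ester hydrolase, was higher (1.62, SE 0.22, limma adjusted p = 3.06e-05). NZO replicate 2 held the lowest NZO value of all 4 esterases. Ephx1, the microsomal epoxide hydrolase, differed by -0.82 (SE 0.15).

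Of 27 tested aldo-keto reductases and steroid dehydrogenases, 3 were higher in NZO, with Akr1c18 first, and 5 lower. That is 29.6% called, against 8.9% of all tested genes. Akr1c12, a copy in the same family as Akr1c18, went the other way, with NZO values of 7.09, 5.86, 6.29, 6.54 and 6.68 against 8.66, 8.86, 8.90, 8.79 and 8.90 in 129P2 (difference -2.33, SE 0.15, limma adjusted p = 3.15e-10). It was dim in 3 NZO animals, and this difference too is not an exact fold. Hsd17b6, which oxidizes androgens and retinol, differed by -2.14 (SE 0.22) and Rdh9, a retinol dehydrogenase, by -1.57 (SE 0.12, limma adjusted p = 8e-09). Hsd3b3, a 3-beta-hydroxysteroid dehydrogenase, was higher by 0.96 (SE 0.14). Inmt, which methylates tryptamine, read 11.03, 7.51, 9.12, 9.67 and 9.77 in NZO and 11.35 to 11.89 in 129P2 (-2.25, SE 0.38, limma adjusted p = 0.00036), again with NZO replicate 2 lowest.

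Bile acid genes were called lower more often than higher, 8 against 1 of 28 tested, with a median of -0.20. Of all tested genes, 4.61% were lower and 4.29% higher. Cyp39a1, a hydroxylase of the minor synthesis route, was dim in 4 of 5 NZO animals, with 5.77, 6.75, 6.51, 5.44 and 6.49 against 8.49, 7.90, 8.19, 8.72 and 7.66 in 129P2 (limma adjusted p = 1.7e-05). No fold is given, since most NZO values were dim. The organic anion transporters were led by Slco1a4, which differed by -2.06 (SE 0.21), and Abcc3, an exporter to the blood side, differed by -1.37 (SE 0.19). Slc10a2, the ileal type bile acid importer that in liver is found in bile duct cells, differed by -1.62 (SE 0.30), with 8.46 in 129P2 replicate 2 just above the highest NZO value of 8.26. Of 7 cholangiocyte markers on the array 5 passed the filter and 1 was called, Muc1 (-0.82, SE 0.20), which lost its call without the 3 narrowest arrays (adjusted p = 0.0681) and with array weights (adjusted p = 0.0529). The part of bile duct cells in the value of Slc10a2 was not tested.

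The bile acid receptor FXR, Nr1h4, was higher by 0.38 (SE 0.10, limma adjusted p = 0.015). Cyp7a1, the rate-limiting enzyme of bile acid synthesis, was not called, with NZO values of 9.02 to 11.32 and 129P2 values of 9.19 to 10.90. Slc22a7, a liver uptake transporter of organic anions outside this list, was higher in NZO by 1.70 (SE 0.34, limma adjusted p = 0.00164).

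Of 21 apolipoprotein and lipoprotein assembly genes, 0 were higher and 3 lower. That is 14.3% of the list called, against 8.9% of all tested genes. Scarb1, the HDL receptor, read 10.56, 10.70, 10.42, 10.52 and 10.45 in NZO and 11.64, 11.11, 11.47, 11.45 and 11.66 in 129P2, a difference of -0.93 (SE 0.10, limma adjusted p = 1.75e-06), with no overlap. Sort1, a sorting receptor that affects VLDL release, differed by -0.67 (SE 0.14, limma adjusted p = 0.00375).

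Among the growth hormone and IGF genes called, the larger difference was that of Igfbp2, a carrier of insulin-like growth factors. NZO values were 9.26, 9.14, 9.79, 8.90 and 10.03 and 129P2 values 11.78, 11.67, 11.72, 11.46 and 11.88. The NZO level was 20.6% of that in 129P2 (difference -2.28, SE 0.18, limma adjusted p = 1.18e-08), and B6 and C3H means were 11.42 and 11.32. Igfbp3 differed by -1.01 (SE 0.12). Igf1 was not called (0.11, SE 0.07, limma adjusted p = 0.44), and Igfbp1 was not called although its groups did not overlap (-1.09, SE 0.35, limma adjusted p = 0.0523). Igfbp2 and Igfbp3 were the only 2 of 16 tested genes of the growth hormone and IGF axis to be called (12.5%, against 8.9% of all tested genes). Of 27 genes of glucose and glycogen metabolism and insulin response, 1 was higher and 4 lower (18.5% called).

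Among hepatokines, proteins that the liver secretes into the blood to act elsewhere, 5 were higher and 3 lower of 24 tested. That is 33.3% called, against 8.9% of all tested genes. Serpina12, the adipokine vaspin, read 10.23, 9.42, 9.39, 10.44 and 9.67 in NZO and 7.23, 6.63, 7.05, 7.70 and 7.62 in 129P2, a difference of 2.58 (SE 0.35, limma adjusted p = 2.05e-05). B6 and C3H means were 9.09 and 9.89, nearer to NZO. Genes known as higher in male liver had 6 members higher and 1 lower of 21 tested. Among them Selenbp2, a selenium-binding protein, differed by 1.58 (SE 0.16). Genes higher in female liver had 0 higher and 3 lower of 12. The shares of all tested genes were 4.29% higher and 4.61% lower. All animals were male. Moxd1 belongs to the first list, and Cyp3a44 (-1.33, SE 0.25), a cytochrome that was dim in 3 NZO animals, to the second.

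Amino acid genes gave 5 higher and 6 lower of 38 tested (28.9%, against 8.9% of all tested genes). Ddah1, which breaks down the nitric oxide synthase inhibitor dimethylarginine, read 9.11, 8.08, 8.32, 8.86 and 8.88 in NZO and 11.39, 10.61, 11.30, 11.30 and 11.03 in 129P2 (difference -2.47, SE 0.20, limma adjusted p = 1.15e-08). The gene was 5.56-fold lower in NZO. Prodh2, a hydroxyproline dehydrogenase, differed by -1.01 (SE 0.09), and Bhmt, which remethylates homocysteine, by 0.63 (SE 0.12). Among iron and metal genes, 3 were higher and 4 lower of 23 (30.4%, against 8.9% of all tested genes). Beside Hamp, Slc40a1, the iron exporter ferroportin that hepcidin removes from the membrane, differed by -0.76 (SE 0.15). Steap3, a ferrireductase, differed by -0.69 (SE 0.09).

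Hepatocyte markers did not differ detectably: 0 of 11 were called, and their mean level was 13.41 to 13.55 in NZO and 13.35 to 13.53 in 129P2. A list of 11 is too short to tell 0 calls from the 8.9% called over all tested genes. Markers of liver endothelial cells were lower in NZO in 8 of 13 and higher in 0, against 4.61% and 4.29% of all tested genes. Their median was -0.50, and mean levels were 8.19 to 8.62 in NZO against 8.70 to 9.07 in 129P2. Kdr, the VEGF receptor, read 8.92, 8.17, 8.59, 8.85 and 8.61 in NZO and 9.54, 9.06, 9.50, 9.34 and 9.41 in 129P2 (difference -0.74, SE 0.14, limma adjusted p = 0.00114). Dnase1l3, a DNase made by these cells, differed by -0.83 (SE 0.15) and Oit3, another endothelial gene of liver, by -0.66 (SE 0.12). Lyve1, a hyaluronan receptor of the sinusoid lining, was not called (0.31, SE 0.17, limma adjusted p = 0.322).

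Markers of stellate cells and fibroblasts were lower in 6 of 13 and higher in 0, against 4.61% and 4.29% of all tested genes. The median was -0.37. Ecm1, an extracellular matrix protein, read 9.45, 9.01, 9.31, 9.62 and 9.48 in NZO and 10.40, 9.99, 10.31, 10.26 and 10.19 in 129P2 (difference -0.86, SE 0.11, limma adjusted p = 9.38e-06). Colec10, a collectin of stellate cells, differed by -0.70 (SE 0.11) and Dcn, the proteoglycan decorin, by -0.65 (SE 0.17). NZO replicate 2 was the lowest animal for Kdr, Dnase1l3, Oit3, Ecm1, Colec10 and Dcn, and the mean of the endothelial list was lowest in it. Without NZO replicate 2, 6 endothelial markers were called. Compared with the other strains, the endothelial list had 9 lower and 0 higher in NZO minus B6, 6 lower and 0 higher in NZO minus C3H, 1 lower and 0 higher in 129P2 minus B6, and 1 lower and 1 higher in 129P2 minus C3H, in comparisons that share animals. The shares of all tested genes called lower were 6.64%, 3.09%, 4.08% and 2.25% in that order. The part of these cells in other differences was not tested.

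Called genes that neighbour each other were counted along the RefSeq annotation, over 14145 tested genes with a place in it. There were 26 runs of at least 3 called genes, with 92 genes in all: 17 runs of 3, 6 of 4, 2 of 5 and 1 of 7. The longest held 4933431E20Rik, Gstm5, Gstm7, Gstm6, Gstm3, Gstm2 and Gstm1, of which only Gstm7 was higher in NZO. In the run H2-DMa, Psmb9, Tap1, Psmb8 and Tap2 the class II gene was lower and the 4 class I genes were higher. H2-DMa, a class II peptide loading factor, differed by -0.38 (SE 0.10) and lost its call without NZO replicate 3, NZO replicate 4 or 129P2 replicate 5 (adjusted p 0.0676, 0.0572 and 0.0682), and Tap1 (0.40, SE 0.10) lost it without the 3 narrowest arrays (adjusted p = 0.052).

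The run Saa3, Saa4, Saa1, Saa2 and Hps5 was higher throughout, though Hps5, a lysosome biogenesis gene with no acute phase role in the lists, differed by only 0.29 (SE 0.07). In the run Bace2, Mx1, Mx2 and Tmprss2, Mx1 alone was higher. Acad12, Acad10, Brap and Atxn2 were all lower in NZO, with Acad10, an acyl-CoA dehydrogenase, at -1.07 (SE 0.10). The call of Atxn2 (-0.32, SE 0.09, limma adjusted p = 0.0348) was lost in 9 alternative settings, with adjusted p up to 0.0954. A run of 4 class II genes, H2-Ab1, H2-Aa, H2-Eb1 and H2-Ea, was picked for display after its values were seen: H2-Eb1 differed by -0.81 (SE 0.17), so that H2-Ea alone was higher. No test of clustering was made.

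**Figure D5:**
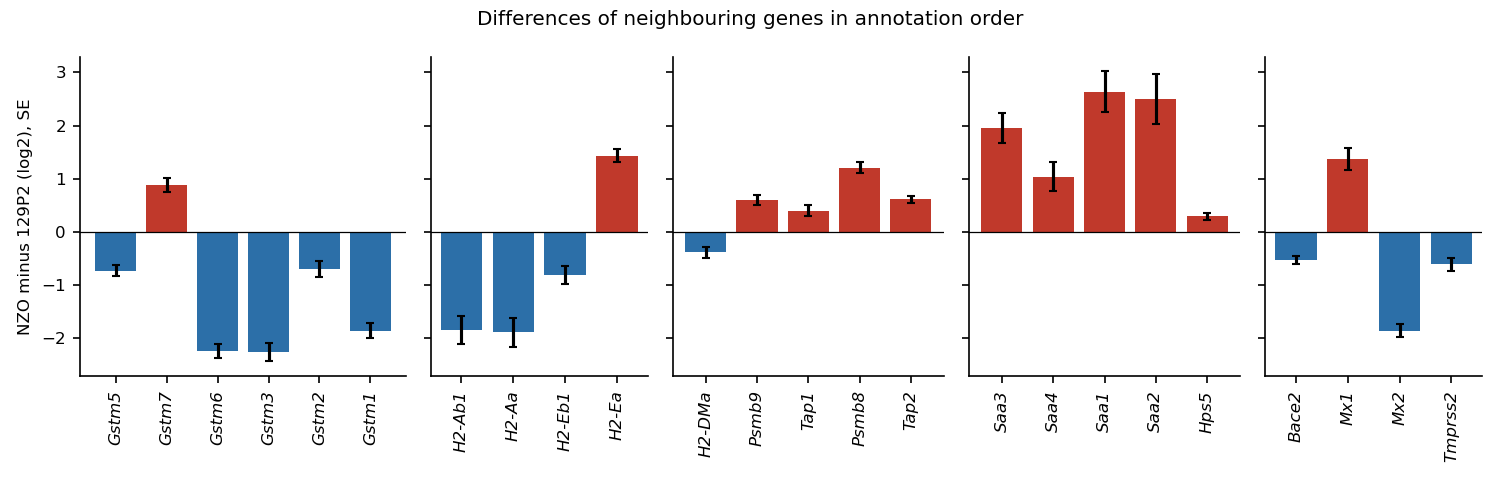
Difference NZO minus 129P2 (log2, with SE bars) of called genes that follow each other in the annotation, in 5 runs, red where higher in NZO and blue where lower. Gstm7, H2-Ea and Mx1 stand above 0 among neighbours below 0, and H2-DMa stands below 0 among neighbours above it.

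Where a gene had several tested probe sets (724 genes), 24 genes had at least 2 of them called in 1 direction, 40 had only 1 called, and 1 had probe sets called in opposite directions. This was Gas5, a noncoding RNA that hosts small nucleolar RNAs. Its brightest probe set, used above, differed by -0.35 (SE 0.07), while another of its probe sets differed by 1.30 (SE 0.14).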

How the data were processed

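Liver RNA of 20 mice was hybridised to 1-colour Affymetrix gene arrays, 1 per animal. Per the labels' protocols, 150 ng of RNA with an integrity number above 8 was amplified. The authors deposited log2 values made by RMA in Affymetrix Expression Console, per the submitters' processing notes. Versions are not given in the sources used here. RMA puts the probe signals of the arrays on 1 distribution, so a change of all transcripts together cannot be seen. The deposited probe set values still differed between arrays. The interquartile range was 2.17 in C3H replicate 3 and 2.50 in NZO replicate 1, and the medians were 7.10 and 6.94. The number of arrays, 5 a strain, limits the precision.

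Of 35556 probe sets, 21789 had 1 gene symbol and were used, 1621 had several and 12146 had none in the platform annotation. By Entrez number 21698 matched RefSeq (GRCm38.p6), which changed 0 symbols. Where a gene had several probe sets (999 genes), the one brightest on average was kept. A gene was tested if at least 5 of 20 arrays were above their own 40th percentile.

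The test was limma 3.58.1 in R 4.3.3, with 1 mean per strain over all 20 arrays, an intensity trend, 16 residual degrees of freedom and Benjamini-Hochberg adjustment over 14190 genes. On simulated data with 200 changed genes of 14190 in this comparison, 80% of log2 changes of 0.5 and 100% of those of 1 and 2 were recovered, with 6 false calls among 186. The simulated noise was normal, independent between genes and equal in all strains and arrays. Uneven spread, array effects and correlated genes were therefore not covered. For a gene dim on all 5 arrays of a strain, the fold is the brighter strain's mean over the dimmer strain's mean percentile. Tables and figures were made with pandas 2.3.3 and matplotlib 3.10.9.

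Genes were named by a rule: Nudt19, the 15 largest differences without overlap and the 6 lowest adjusted p each way, the 6 largest bounds each way, up to 4 called genes of a list each way with its best known uncalled gene, the genes of the 6 longest runs, and genes with opposite probe sets. Not all that the rule allows are printed. H2-Eb1 and Rsad2 are outside the rule. Lists, rule and comparison were chosen with earlier results of these data known. Lists were described by counts and medians, with no test of a list. Lists share members, so a called gene can count in several of them. Examples are C6, under complement and male liver, and Igfbp2, under hepatokines and the IGF axis.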

Additional observations from a re-analysis of the deposited data

Results flagged for a closer look

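Within each strain, the highest or lowest of the 5 animals was compared with the other animals by its gap over the whole range, against a critical value of 0.71. Of 298 groups of 5 values examined, 14 passed, where chance gives about 1 in 20. No cause was tested.

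NZO replicate 2 was the lowest NZO animal, apart from the others, for Acaa1b (9.05), Acad12 (6.71), Gstm5 (7.20) and Pdia4 (11.86). It was also among the 3 arrays of narrowest spread. 129P2 replicate 2 was the lowest 129P2 animal for Gbp7 (7.74), Gstm6 (8.46), Pxmp4 (10.59) and Ugt2b37 (7.25), and its array had the lowest interquartile range of the 5, at 2.19.

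Among the other 129P2 animals, replicate 5 was highest for Dpy19l3 (7.38), replicate 4 for Gstm2 (9.89) and replicate 1 for Igfbp3 (9.77). Among the other NZO animals, replicate 4 was highest for Lyve1 (8.43), and replicate 1 had the highest mean level of the complement and coagulation genes, at 11.62 against a median of 11.38 in the others.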

How the results depend on the processing

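No paired analysis was possible because the labels carry no replicate numbers shared between the strains. Of the 1263 calls, 1235 were shared with the 2102 made with array weights and 1263 with the 1928 made with the array's spread as a covariate. Settings that made fewer calls shared fewer. With only the NZO and 129P2 arrays 1001 were shared, of 1091 made, and with equal array medians 973, of 984 made. Quantile normalization again made 1591 calls, of which 1231 were shared. Against a fold of 1.2, 267 genes were called. All are among the 1263, because this stricter test on the same fit can only give a subset. Against that fold 140 genes were higher and 127 lower. The lower calls came to 1271 with array weights and 1055 with the covariate, and the calls were higher in NZO for 609 of 1263 genes as reported and for 39.5% with array weights. Leaving out 1 animal at a time gave 1018 to 1292 calls, of which 999 to 1097 were shared with the 1263. With the 60th percentile as the filter, the median of the MHC class II genes was -1.665 and that of the stellate markers -0.474. Leaving out 1 animal at a time, the stellate median lay between -0.480 and -0.311. With no filter the Cyp2c median was -1.681. Without the 3 narrowest arrays 6 cholesterol genes were called higher, and 8 to 15 with 1 animal left out. With array weights 15 bile acid genes were called lower. Over the tested genes alone the array spread differed by -0.032 (exact two-sided permutation p = 0.706). With the mean of its probe sets Gas5 differed by 0.323. Cyp7a1, not called, differed by 0.318 with array weights and by -0.368 to 0.208 with 1 animal left out, where 0.208, 0.046, 0.152 and 0.11 changed the sign. Fasn, not called, differed by 0.13 without 129P2 replicate 4 and -0.294 without NZO replicate 4. Igfbp1, Lcn2 and Srebf2 were called in some alternatives, with lowest adjusted p of 0.000632, 0.0487 and 0.00713. Of 128 called genes named, 119 stayed called in every alternative in which they were scored. The naming rule favours large and well separated differences in these same data, so this share does not stand for all 1263 calls. The fold of 1.2 and the fit with every probe set were not scored by gene. Named genes that failed the 60th percentile filter were not scored under it. Gas5 counts among the 119 although its sign changed with the mean of its probe sets. The causes were not tested. With every probe set as a feature of its own, 1310 were called. Genes near the 40th percentile are limited by their signal over background.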
